A study of Arabidopsis thaliana with 2 samples.

Results

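Alternative oxidases are the subject here, the 5 nuclear genes AOX1A, AOX1B, AOX1C, AOX1D and AOX2 of Arabidopsis thaliana, taken by their locus identifiers from a table of 22937 loci. All 5 were listed, each with 1 transcript, and 2 of them, AOX1A and AOX1C, reached 50 reads in Col or in atphb3, the minimum for a locus to be called measured below. RNA came from the tip of the primary root in 2 groups, the wild-type accession Col and atphb3, a mutant named for PROHIBITIN 3, whose protein forms ring-like scaffolds in the inner membrane of mitochondria. The labels do not give the allele, and 1 sentence of the protocol names shoots beside roots. Seeds of both groups spent 3 days in the cold at 4 °C on MS medium, and seedlings then grew at 20 °C under days of 16 h and nights of 8 h. No other treatment is named. Each group held 1 library, so there was no spread between replicates, no test across genotypes, and every interval below is a 95% interval for counting error only. The libraries held 7451022 assigned reads in Col and 7384348 in atphb3.

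Alternative oxidase is an enzyme of the inner mitochondrial membrane that takes electrons from ubiquinol and passes them to oxygen. Electrons on this route bypass complex III, cytochrome c and complex IV, and the oxidase itself pumps no protons. AOX1A is the form best known from vegetative tissue, where its mRNA is a standard marker of signalling from impaired mitochondria to the nucleus. The RefSeq annotation describes AOX1B as a gene of flowers and floral buds, and AOX1C as a gene that is not induced by antimycin A, an inhibitor of complex III.

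The label of the mutant could not be checked from its own gene. PHB3 counts were 915 in Col and 863 in the library under the mutant's label, a ratio of 0.952 (0.866 to 1.05), so that library is called "the library labelled atphb3". Of 5 root stem cell niche markers, all had reads in both libraries, and summed to 129 CPM (reads scaled to a library total of 1000000) in Col against 265 in the library labelled atphb3. Of 5 prohibitin genes 3 were measured and 2 were higher, against 9.74% of measured loci, with PHB4, at 32 and 140 reads, measured through atphb3 reads alone. Markers of other tissues differed too. The 5 shoot and leaf markers summed to 145 CPM in Col against 3.66 in the library labelled atphb3, with STM, a shoot meristem factor, at 0 and 1 reads. The 2 phloem markers summed to 260.4 and 51.2 CPM, the 2 xylem markers to 272 and 140 CPM, the 3 root hair markers to 74.1 and 151 CPM, and the 3 root cap markers to 14.9 and 30.9 CPM. The part of such tissue differences in the oxidase levels was not tested, and in whole tips more cells of a type and more RNA per cell cannot be told apart.

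AOX1A carried nearly all of the alternative oxidase mRNA and was 3.44-fold higher in the library labelled atphb3. Its gene (AT3G22370) lies on the plus strand of chromosome 3, with a listed transcript from 7906791 to 7908740. It had 841 reads in Col, or 113 CPM (105 to 121), against 2867 reads in the library labelled atphb3, or 388 CPM (374 to 403). These intervals do not overlap, and the ratio of 3.44 had an interval of 3.18 to 3.72, a log2 ratio of 1.78. Per length, the level was 75.9 RPKM (CPM per kilobase of transcript) in Col, where 13.6% of measured loci were higher, and 261 RPKM in the library labelled atphb3, where 3.26% were. Of 12931 measured loci, 392, or 3.03%, had a higher log2 ratio than AOX1A.

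AOX1C was at the floor of 3 reads in Col and well above it in the library labelled atphb3. This gene (AT3G27620, chromosome 3, 10229045 to 10230702, minus strand) had 3 reads, or 0.403 CPM (0.0830 to 1.18), against 56 reads, or 7.58 CPM (5.73 to 9.85). Its ratio of 18.8 had a wide interval, 6.12 to 94.1, because of the few reads in Col. AOX1C passed the minimum only because of its reads in the library labelled atphb3, and had therefore to be higher there. Of 3843 loci with 3 or fewer reads in Col, 27, or 0.703%, had 50 or more in the library labelled atphb3. In that library AOX1C reached 5.66 RPKM against 261 for AOX1A.

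The other members stayed near the limit of detection. AOX1D (AT1G32350, chromosome 1, 11666977 to 11668690, minus strand), a stress-responsive form, had 2 reads in Col against 8 in the library labelled atphb3, with a ratio of 4.04 whose interval of 0.805 to 39.0 included 1. AOX1B (AT3G22360, chromosome 3, 7904156 to 7905384, plus strand) had 0 and 5 reads. Set against a floor of 3 reads in Col, AOX1B was 1.68-fold higher, but the lower end of its counting interval was 0.925, below 1. AOX2 (AT5G64210, chromosome 5, 25683965 to 25685664, minus strand), a form known from seeds, had 0 and 2 reads, both under the floor of 3 reads, so no fold is given. In the library labelled atphb3 the order of levels per length was AOX1A at 261 RPKM, AOX1C at 5.66, AOX1D at 0.810, AOX1B at 0.692 and AOX2 at 0.255. Only the steps from AOX1A to AOX1C and from AOX1C to AOX1D exceeded counting error, since AOX1D, AOX1B and AOX2 rested on 8, 5 and 2 reads.

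**Figure D1:**
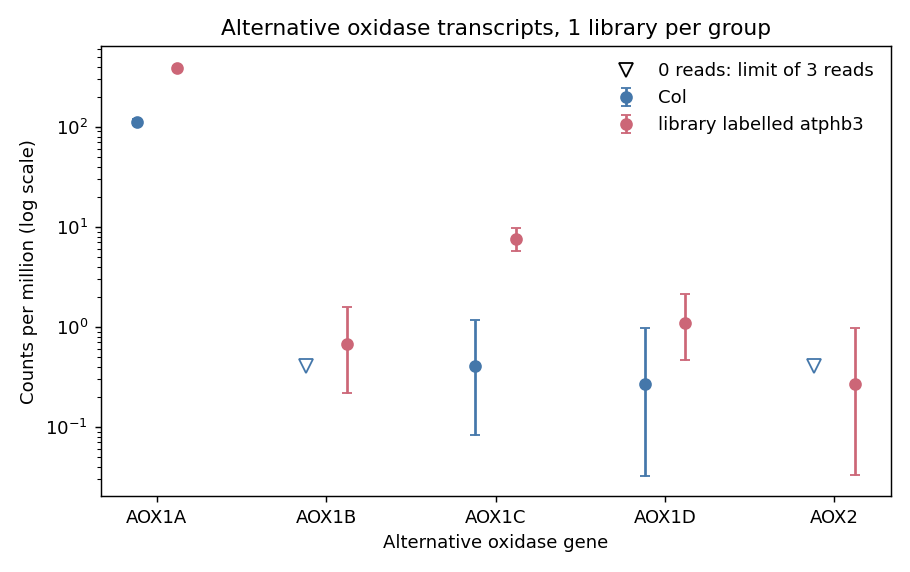
CPM on a log axis for each alternative oxidase gene in Col (blue) and in the library labelled atphb3 (red), 1 library per group, with 95% Poisson intervals as bars and open triangles at the limit of 3 reads where 0 reads were found. The intervals of AOX1A and of AOX1C do not overlap between libraries, while those of AOX1D do.

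All 5 genes had a higher CPM in the library labelled atphb3, against 54.8% of all listed loci. Both measured members were 2-fold or more higher and 0 were lower, against 9.74% of measured loci higher and 10.1% lower. Since AOX1C had to be higher to count as measured, nothing is read from that count or from the median log2 ratio of the 2, which was 2.90 against 0.08 over all measured loci. With at least 200 reads AOX1A alone is left, at 1.78. At 4-fold, AOX1C alone of the measured members was higher, against 2.32% of measured loci. With no filter on reads, and 0.5 reads added to each count, all 5 pass 2-fold, against 15.9% of all listed loci, but for AOX1B and AOX2 that value is set by the added reads and is no fold. Summed over the family, 846 reads in Col against 2938 in the library labelled atphb3 gave a ratio of 3.50 (3.25 to 3.79).

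Of the pairs compared, only AOX1C and AOX1A differed beyond counting error in how far apart the libraries were. The fold of AOX1C was 5.48 times that of AOX1A, with an exact conditional interval of 1.77 to 27.4 that lay above 1. AOX1C rested on 3 reads in Col, however, and counted as measured only through the library labelled atphb3. The fold of AOX1D was 1.17 times that of AOX1A (0.234 to 11.4), so at this depth no difference between them was detectable. Nor was one detectable between AOX1C and AOX1D, where the ratio of folds was 4.67 (0.330 to 46.3). The make-up of the family restates the same reads as shares, so it adds no separate evidence and has the same limit for AOX1C. AOX1A held 99.4% of the family's reads in Col (Clopper-Pearson 98.6 to 99.8) and 97.6% in the library labelled atphb3 (97.0 to 98.1). AOX1C held 0.355% (0.0732 to 1.03) and 1.91% (1.44 to 2.47), intervals that do not overlap. The 0 reads of AOX1B and AOX2 in Col allow a share of up to 0.355% each by the limit of 3 reads, or 0.435% by the upper Clopper-Pearson end. Without AOX1A, the other 4 genes together had 5 and 71 reads, a ratio of 14.3 (5.86 to 45.5). Of these, 3 and 56 were reads of AOX1C, so the sum mostly restates that gene.

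The genes share their exon plan. In RefSeq models of TAIR10.1, AOX1A, AOX1B and AOX1C have 4 exons, of which exon 2 is 129 bases and exon 3 is 489 bases in each, and the last exon holds 60 coding bases in all 5 genes. AOX2 has 5 exons, with the same 129 and 489 bases as exons 3 and 4. AOX1D has 4 exons, and its exons 2 and 3 measure 194 and 295 bases, which add up to 489. For all 5 the deposited length equals the spliced RefSeq length inside the listed span, and for AOX1B and AOX2 it is the coding length, so their RPKM values leave out untranslated exons. AOX1B and AOX1A are neighbours on the same strand, 1406 bases apart by their listed spans, and no listed locus overlaps any of the 5.

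Because the copies are alike, the assignment of reads between them matters for the low members. Coding sequences of AOX1A and AOX1C were 81.4% identical over 964 aligned bases, and the longest run of identical letters between their listed transcripts was 34 bases. For AOX1B and AOX1C it was 42 bases at 87.3% identity, and for AOX1A and AOX1D 13 bases at 70.9%. The 34-base run is shown because only a read lying wholly inside such a run would fit AOX1A and AOX1C equally well without mismatches. It lies in exon 3 of both genes, at chr3:7908047-7908080 (plus strand) in AOX1A and at chr3:10229629-10229662 (minus strand) in AOX1C.
AOX1A and AOX1C: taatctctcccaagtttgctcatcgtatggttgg
The read length and the treatment of reads that fit several transcripts are not given in the sources used here.

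**Figure D2:**
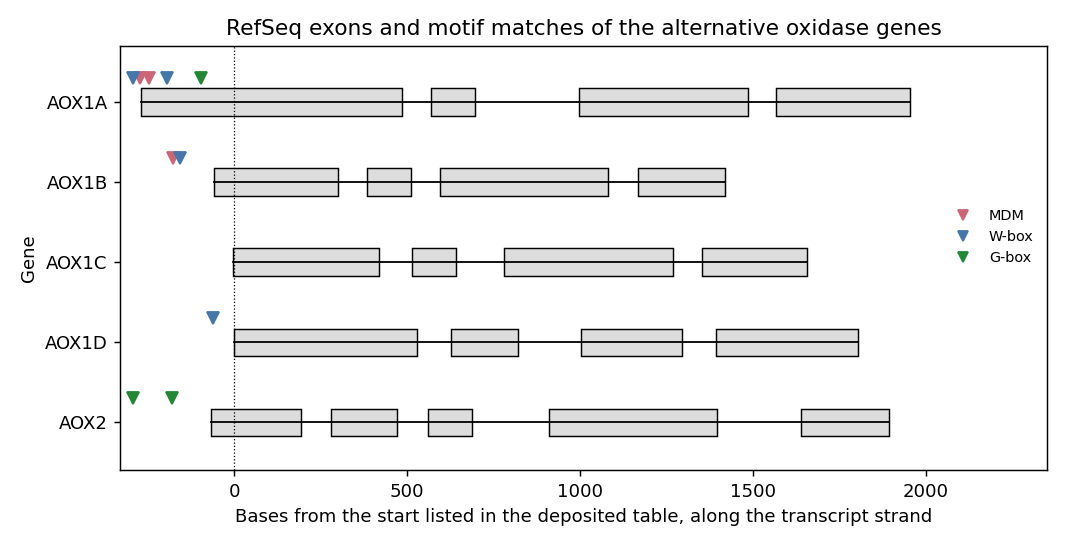
RefSeq exons (boxes) of the 5 alternative oxidase genes, placed in bases from the start listed in the deposited table, with triangles at the first base of each match to 3 motifs in the 300 bases before that start. AOX1A holds 2 matches to the mitochondrial dysfunction motif, AOX1B holds 1, and AOX1C, AOX1D and AOX2 hold 0.

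The mitochondrial dysfunction motif (MDM) is a DNA element known to be bound by NAC factors, among them NAC013 and NAC017, that carry mitochondrial signals to the nucleus. It was searched as CTTG, then 5 bases of any kind, then CACG or CAAG, on both strands, in the 300 bases before the listed start of each locus. Bases were read from the RefSeq genome TAIR10.1. AOX1A had 2 matches, which begin 273 and 246 bases before its listed start, and AOX1B had 1, 177 bases before its own. Such a match occurred in 1.36% of 22793 regions, and at least 2 matches in 7 regions, or 0.0307%. The RefSeq model of AOX1A begins 270 bases before the listed start, so the second match and most of the first lie in its exon 1. Counted from RefSeq starts, only AOX1B of the family held a match, against 1.24% of 22013 regions. AOX1C, AOX1D and AOX2 had none of these letters in either window.

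The sites are shown because a match, scarce in the genome, was found before the listed starts of AOX1A and AOX1B, of 4 of 11 genes reported to be induced with AOX1A and of 2 of 7 type II dehydrogenases. Before RefSeq starts the counts were 2 of 11, UPOX and AT2G04050, and 3 of 7, with NDB3 added, so the matches of AT12CYS-2, UGT74E2 and AT2G41730 hold for the listed starts alone. The motif and these gene lists were chosen with earlier results of these data known, so the counts are not independent evidence. Each line gives 30 bases along the gene's strand, 5′ to 3′, with the match in capitals. The AOX1A sites lie at chr3:7906510-7906539 and chr3:7906537-7906566, and the AOX1B site, a match on the opposite strand, lies at chr3:7903971-7904000. The sites of the other genes lie at chr2:9254319-9254348 (UPOX), chr5:2970503-2970532 (AT12CYS-2, opposite strand), chr1:1704804-1704833 (UGT74E2, a gene on the minus strand), chr2:17409353-17409382 (AT2G41730), chr1:2204026-2204055 (NDA1) and chr4:2572340-2572369 (NDB2). NDA1 and NDB2 belong to the dehydrogenases described below. Sites were printed for these lists only. NAC017 and the thioredoxin reductase NTRB, from other lists described below, also had a match before their listed starts. Both lay within 2-fold, at log2 ratios of -0.27 and 0.91, so a match was not found beside higher genes alone. In the oxidase genes the capital letters overlap no match to the other motifs searched. The 30 bases printed for AOX1B do end in the first letters of a W-box match, an element described below.
AOX1A, first site: atctagctCTTGGCGACCACGcaagtatct
AOX1A, second site: tcttccatCTTGCTCTCCAAGaaaaatcta
AOX1B: tgtcttttCGTGTGCTACAAGtcttttagt
UPOX: tttagtaaCTTGCTCTCCAAGgagatctag
AT12CYS-2: gcaagaaaCGTGACGGGCAAGgggaatatt
UGT74E2: ccgcacatCTTGGTCGCCACGgaacataga
AT2G41730: attaatatCTTGCTGGACAAGcatttttga
NDA1: tgtcgtttCTTGCGCATCAAGttctgctga
NDB2: cgatctggCTTGGCCACCAAGattgtttga
The second AOX1A site and the UPOX site have the same 13 letters in capitals, a string found in 6 of the 22793 regions. The letters of the first AOX1A site were found in AOX1A alone.

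Loci with a match were higher more often than measured loci as a whole. Of 152 measured loci with a match, AOX1A among them, 61 were higher by 2-fold or more in the library labelled atphb3, or 40.1%, against 9.74% of all measured loci. Their median log2 ratio was 0.47, against 0.08. Of the 152, 36 had 50 reads only in the library labelled atphb3. With the minimum of 50 reads set on Col alone, 27 of 116 were at least 2-fold higher, or 23.3%, against 6.3% of 12020 loci. With windows taken before RefSeq starts the share was 31.0% of 142 loci. Of the 7 loci with at least 2 matches, AOX1A, AT2G31860, AT3G60100 and AT4G12735 were measured, with log2 ratios of 1.78, 2.93, 6.06 and 5.82. No set test was made, so these shares are a description of these libraries.

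**Figure D3:**
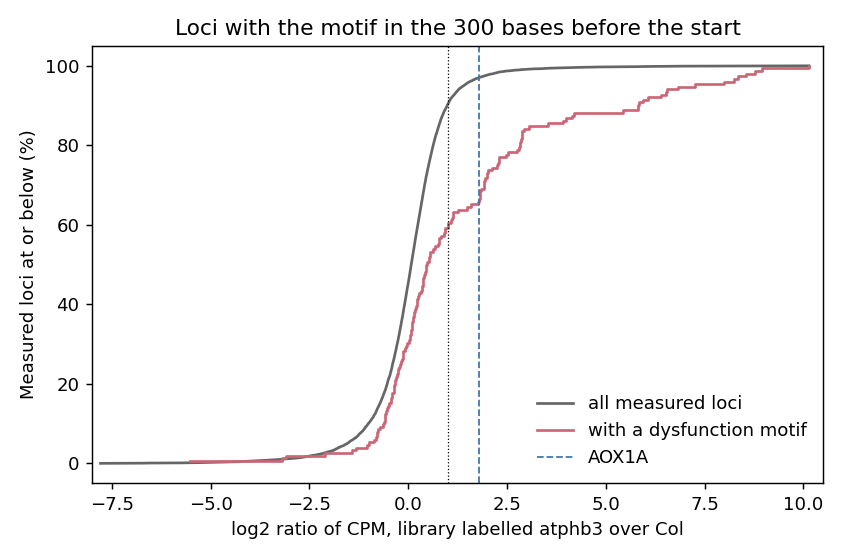
Cumulative percent of loci at or below each log2 ratio of CPM, library labelled atphb3 over Col, for all 12931 measured loci (grey) and for the 152 with the dysfunction motif in the 300 bases before the listed start (red). The dotted line marks 2-fold and the dashed line AOX1A at 1.78, and 40.1% of the loci with the motif lie at or beyond 2-fold against 9.74% of all.

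Matches to other elements were more common in the genome. The W-box, the core site of WRKY factors, was searched as TTGACC or TTGACT on both strands and occurred before the listed start of AOX1A, AOX1B and AOX1D, against 33.3% of all regions. It also occurred before 9 of the 11 genes reported to be induced with AOX1A and 4 of the 7 type II dehydrogenases, more of each than the dysfunction motif. The G-box CACGTG occurred before the listed starts of AOX1A and AOX2, against 9.08% of regions. Of measured loci with a W-box, 9.67% were at least 2-fold higher, and of those with a G-box, 10.8%, beside 9.74% of all measured loci. Before RefSeq starts, the W-box occurred in AOX1A, AOX1B, AOX1D and AOX2, against 32.4% of regions. The G-box was then left in AOX2 alone of the family, against 7.81% of regions.

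Genes reported to be induced together with AOX1A had, in the median, a higher ratio than AOX1A itself. All 11 genes of this set were measured, 4 of them only through the library labelled atphb3. Higher by 2-fold or more were 10, against 9.74% of measured loci, lower were 0, and the median log2 ratio was 4.83. AT2G04070, a MATE-type transporter gene, had 0 reads in Col against 394 in the library labelled atphb3. Set against the floor of 3 reads that is 133-fold higher, and the lower end of its counting interval was 107. UPOX, a mitochondrial protein induced by oxidative stress, had 55 and 2388 reads, a ratio of 43.8 (33.5 to 58.3). SOT12, a sulphotransferase, had 342 and 4669 reads, a ratio of 13.8 (12.3 to 15.4). UGT74E2, a glucosyltransferase of the auxin indole-3-butyric acid, had the highest level per length in Col of the set, 35.3 RPKM, and reached 412 RPKM. AT12CYS-1 lay within 2-fold, with 74 and 130 reads. In Col the 11 genes together had 159 CPM beside 114 for the oxidase family, and in the library labelled atphb3 they had 2938 CPM beside 398. This set was drawn up with earlier results of these libraries known, so its direction is not independent evidence.

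The enzymes that feed ubiquinone without complex I were higher in part. Of 7 type II NAD(P)H dehydrogenases, 4 were higher by 2-fold or more, 3 lay inside that limit and 0 were lower, against 9.74% of measured loci higher and 10.1% lower. Their median log2 ratio was 2.28. Those 4 reached the minimum of 50 reads only in the library labelled atphb3, and the 3 that reached it in Col all lay within 2-fold. NDA1, which faces the matrix, had 7 and 628 reads, the highest log2 ratio of the set at 6.40. NDB2, an external enzyme often reported together with AOX1A, had 15 and 74 reads, a ratio of 4.98 (2.83 to 9.34). NDC1, which also works in plastids, had 212 and 209 reads, the lowest log2 ratio at -0.01 and the highest level per length in Col, 14.9 RPKM. Summed per length, the 7 dehydrogenases were at 40.1 RPKM in Col, beside 76.4 RPKM for the oxidase family, and at 238 RPKM beside 268 in the library labelled atphb3. The oxidase family was thus 1.91 times the dehydrogenase sum in Col and 1.13 times in the other library. NDB4, with 33 and 1676 reads, was the largest part of the sum in the library labelled atphb3. It was at 2.45 RPKM in Col and 125 RPKM there.

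**Figure D4:**
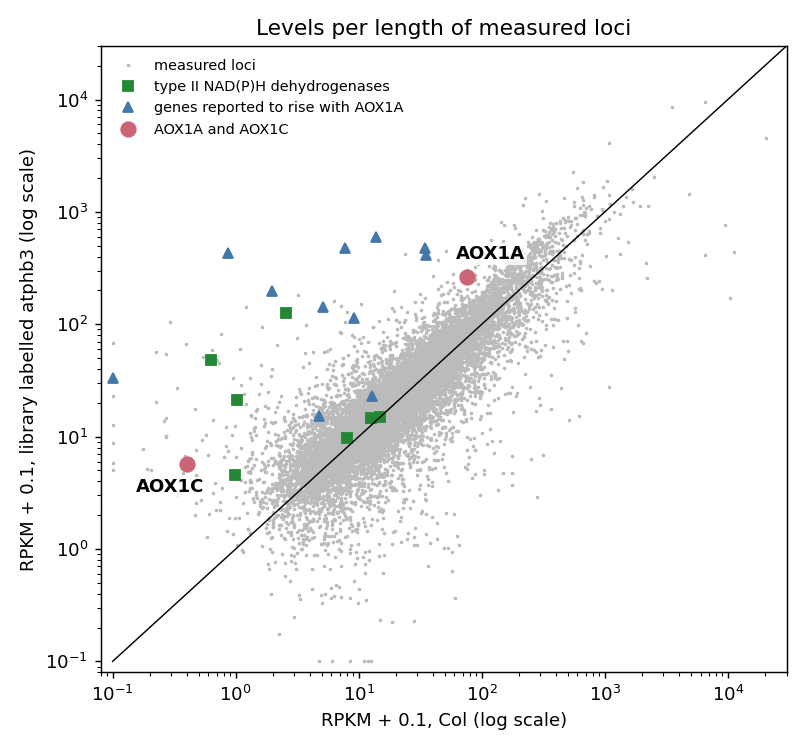
RPKM plus 0.1 in Col against the library labelled atphb3, both on log axes, for 12931 measured loci (grey), with AOX1A and AOX1C in red, type II NAD(P)H dehydrogenases as green squares and genes reported to be induced with AOX1A as blue triangles. AOX1A sits among the abundant loci of both libraries, and AOX1C at 0.300 and 5.66 RPKM lies among loci scarce in Col.

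The cytochrome route, which AOX bypasses, was higher too, in the median by less than AOX1A. Of 28 measured genes for cytochrome c, complex III, complex IV and assembly of complex IV, 14 were higher by 2-fold or more and 0 lower, against 9.74% and 10.1% of measured loci. All 28 had a log2 ratio above 0, and so had 7065 of the 12931 measured loci. The median of the 28 was 0.98, close to the 2-fold limit. With TMM or median of ratios, scalings named below, 10 rather than 14 were higher by 2-fold or more. CYTC-2, a cytochrome c gene, had 240 and 760 reads, the highest log2 ratio of these at 1.67. Its ratio of 3.20 (2.76 to 3.71) did not differ from that of AOX1A (3.18 to 3.72) beyond counting error. CYTC-1, the other cytochrome c gene, had 120 and 273. RISP1, a Rieske iron-sulphur subunit of complex III, had 1127 and 2865 reads, a ratio of 2.57, and MPPA1, a core subunit that also processes imported proteins, had 125 and 179. In complex IV the ratio ran from 1.40 for COX6B-3, with 502 and 695 reads, to 2.57 for COX5B-1, with 33 and 84. COX5B-1 and COX5C-2, with 27 and 58 reads, are 2 of the 4 higher complex IV genes and reached 50 reads only in the library labelled atphb3. Among its assembly factors, the haem A enzymes COX15 and COX10 had 228 and 653, and 434 and 784 reads. COX17-2, a copper chaperone for complex IV, had 101 and 118 reads, the lowest at 0.24. QCR8-1, a small subunit of complex III, had the highest level per length in Col, 277 RPKM, and 464 in the library labelled atphb3. Per length, the oxidase family was 1.07 times the sum of both cytochrome c genes in Col and 1.29 times in the library labelled atphb3. Against RISP1 and RISP2 summed, it was 0.247 and 0.450 times.

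**Figure D5:**
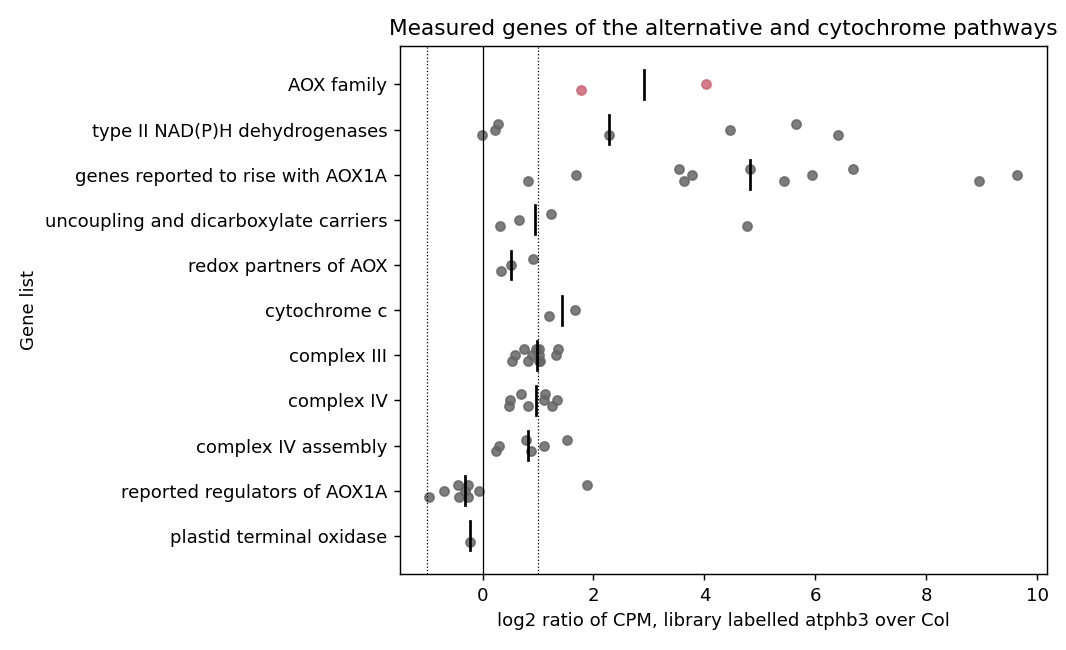
Log2 ratio of CPM, library labelled atphb3 over Col, for each measured gene of the oxidase family (red) and of related lists (grey), with the median of each list as a black bar and dotted lines at 2-fold in either direction. The oxidase genes lie at 1.78 and 4.03, and the type II dehydrogenases run from -0.01 to 6.40. Of the 9 measured regulators 8 lie below 0, while 7065 of the 12931 measured loci lie above 0.

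Reported regulators of AOX1A lay mostly within 2-fold. Of 14, 12 were listed and 9 measured. By the 2-fold limit 1 was higher, 0 lower and 8 inside it, a count near the 9.74% higher and 10.1% lower of all measured loci. The median log2 ratio was -0.32. NAC017, the membrane-anchored NAC factor upstream of AOX1A, had 1003 and 827 reads, a ratio of 0.832 (0.758 to 0.913). The highest level per length in Col among them was that of NAC053, a related NAC factor, which also had the lowest log2 ratio, -0.96, on 1879 and 960 reads. WRKY40, reported as a repressor of AOX1A, was the 1 that was higher, with 26 and 97 reads and a ratio of 3.76 (2.42 to 6.05), and it reached 50 reads only in the library labelled atphb3. NAC013 had 4 and 33 reads, too few to be called measured, and a ratio of 8.32 (2.96 to 32.3).

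Genes for proteins that act on the oxidase or beside it were mostly within 2-fold, as were 10371 of the 12931 measured loci. Among thioredoxin system genes, which can reduce the regulatory cysteines of AOX, 3 of 4 were measured and all lay within 2-fold, from a log2 ratio of 0.33 for the thioredoxin TRXO2 to 0.91 for the reductase NTRB. NTRA, the other reductase, was the most abundant per length, at 290.4 and 414 RPKM. Of 6 uncoupling and dicarboxylate carriers, 4 were measured and 2 were higher by 2-fold or more, against 9.74% of measured loci. DIC2, a dicarboxylate carrier, had 32 and 872 reads, a ratio of 27.5 (19.3 to 40.5), and reached 50 reads only in the library labelled atphb3. UCP1, an uncoupling protein with the highest level per length in Col, had 858 and 1344, and UCP3 had 82 and 101. The plastid terminal oxidase PTOX, a relative of AOX in the thylakoid that also oxidises a quinol, was not higher. It had 280 and 238 reads, a ratio of 0.858 (0.719 to 1.02), so the oxidase family was 2.92 times PTOX per length in Col and 11.9 times in the library labelled atphb3.

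Loci whose pair of levels was most like that of AOX1A were found by the Euclidean distance of log2(RPKM + 0.1) over the 2 libraries. The 5 nearest were AT1G77840, a translation initiation factor of the IF2/IF5 family, EXT4, an extensin of the cell wall, AT1G32920, of unknown function, KCS2, a fatty acid elongation enzyme, and AT5G56980, also unknown. Their distances ran from 0.0785 to 0.219. For AOX1C the nearest were SULTR3;2, a sulphate transporter, AT2G04460, listed as a transposable element gene, AT1G48100, a pectin lyase-like protein, AT5G58610, a putative PHD finger factor, and FDM4, at distances of 0.230 to 0.523. Likeness over 2 libraries is a description of levels alone.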

How the data were processed

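Root tip RNA was reverse transcribed from random primers for Illumina sequencing, per the labels' protocols, 1 library per group, grouped by title. The deposited table holds, for 26425 transcripts, a read count and an RPKM value per library, per the file headers. It also holds the authors' log2 ratio and p-value. The deposited p-value compares 1 library with 1 library and was not used. RPKM equalled count over length and column total, and a count of 0 was deposited as 0.01. Aligner, counter and build are not given in the sources used here, and the labels name no strand-marking kit.

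Counts were summed to locus and scaled to column total as CPM. Log2 ratios had 0.5 reads added. Fold values are CPM ratios with Clopper-Pearson intervals conditional on summed reads, and CPM has Poisson intervals. The labels name no molecular identifiers, so intervals cover counting error only. At these depths 1 read was 0.134 CPM in Col and 0.135 in atphb3.

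Listed spans were compared with RefSeq TAIR10.1. Of 25496 transcripts, 98.9% lay inside the RefSeq gene and 96.9% had the spliced length that RefSeq exons give. Sequences come from that genome.

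The 5 members, the gene lists and the motifs were chosen with earlier results of these data known, and the motif search was added after the read values were seen. Named were all members, PTOX, PHB3, the measured gene of each list with the highest or lowest log2 ratio or the highest RPKM in Col, and the 5 loci nearest each measured member. Marker lists are given as sums. SOT12, UPOX, NDB2, NDB4, NAC017, NAC013, COX5C-2, STM and the loci with motif matches were named after their values were seen. Calculations were tested on simulated Poisson counts. Alternatives were TMM (edgeR 4.0.16), median of ratios (DESeq2 1.42.0), other totals, the deposited RPKM, other pseudocounts, filters and limits. Python 3.11.15, numpy 2.4.6, pandas 2.3.3, scipy 1.17.1, Biopython 1.88, matplotlib 3.10.9 and R 4.3.3 were used.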

Additional observations from a re-analysis of the deposited data

How the results depend on the processing

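Of 254 values recomputed under 12 alternative settings, 156 were counts, which have no direction, and of the other 98, gene log2 ratios and list medians, 0 turned direction. AOX1A kept a log2 ratio of 1.71 to 1.78, AOX1C of 3.55 to 4.24 and AOX1D of 1.33 to 2.01, while values of AOX1B and AOX2, with 0 reads in Col, are set by the reads added. At least 2-fold higher were 5 oxidase genes with no filter on reads and 1 with at least 200 reads (median log2 ratio 1.78), and at least 4-fold higher was 1. At 200 reads the median was 5.44 for genes reported to be induced with AOX1A, 4.46 for type II dehydrogenases and 1.24 for carriers. Under that filter 0 regulators were higher. Loci pass it by their count in either library, so those high in the library labelled atphb3 alone are kept. NDA1, NDB1, NDB3 and NDB4 passed only there, and nothing is read from these medians. At 4-fold, 0 cytochrome route genes, 0 regulators and 1 carrier were higher, against 2.32% of measured loci. At 1.5-fold, 23 cytochrome route genes and 1 redox partner were higher and 2 regulators lower. With intervals wholly beyond 2-fold, 4 cytochrome route genes and 1 carrier were higher. The share of all measured loci was not computed at 1.5-fold, at 200 reads or for such intervals. Counts at these limits are therefore not read as results. With no filter, 2 regulators were higher, against 15.9% of all listed loci, and 1 lower, against 3580 of 22937. The median of redox partners was then 0.42. With TMM scaling, 1 regulator was lower, and 1 when totals left out the 10 most abundant loci, where the median of redox partners was 0.44. Cytochrome route genes at least 2-fold higher fell from 14 to 10 in both of these settings, and with median of ratios. Motif windows before RefSeq starts, chosen after seeing the data, held a match in 1 oxidase gene, in 2 of 11 genes reported to be induced with AOX1A and in 3 of 7 type II dehydrogenases, and 31.0% of measured loci with a match were then higher. The causes were not tested. No paired analysis was possible because each group had 1 library. The low members are limited by depth, since 1 read equals about 0.134 CPM.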
